A study of Mus musculus with 12 samples.

Results

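miR-129 is a brain-enriched miRNA that was read on the TaqMan OpenArray by 2 of the 619 miRNA assays, hsa-miR-129_000590 and mmu-miR-129-3p_001184. They are every assay that carries the number of miR-129 itself, whatever its arm. Both gave a threshold cycle (Ct) in all 12 samples and both were therefore among the 335 miRNAs with a Ct below 28 throughout. miR-129 was selected on its average fold change (FC) between P2rx7-/- control and wt control samples, so every comparison with a control group is given below as a description without a p-value. The name of the first assay carries no arm and is read here as the 5p arm after the older naming convention. The assays are called miR-129-5p and miR-129-3p in what follows.

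The samples came from the ipsilateral hippocampus of male C57BL/6 mice, and the study asked how loss of the P2X7 receptor, an ATP-gated ion channel found chiefly on microglia in the brain, alters hippocampal miRNAs before and after seizures. There were 4 groups of 3 samples, each sample being a pool of 2 hippocampi and an input of 1 μg RNA. wt control and P2rx7-/- control mice received vehicle (0 μg kainic acid, KA) into the basolateral amygdala. The post-SE mice of both genotypes received 0.3 μg KA there, which triggers status epilepticus (SE). All mice, controls included, received 6 mg/kg lorazepam after 40 min, and tissue was taken at 8 h. The labels give an age of 8 weeks and the methods a range of 8 to 12 weeks. The P2rx7-/- line lacks exon 2 of P2rx7 in all cells and from conception on, and the panel holds no assay that could check the deletion.

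A miRNA is cut from a hairpin precursor that can give a mature strand from its 5p and from its 3p arm. The mature strand is loaded into Argonaute within the RNA-induced silencing complex (RISC) and pairs with mRNAs mainly through its seed, bases 2 to 8. miR-129-5p is known from neurons, where it represses translation of the potassium channel Kv1.1 and takes part in the downscaling of synapses after prolonged activity, with the calcium pump Atp2b4 and the microtubule protein doublecortin among its targets.

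The mature sequences are shown because the 2 assays read different strands with different seeds. They are RefSeq sequences on GRCm38.p6, written 5′ to 3′ with the seed in capitals.
mmu-miR-129-5p: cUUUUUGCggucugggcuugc
mmu-miR-129-2-3p: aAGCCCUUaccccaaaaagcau
The 5p strand has 21 bases and is encoded at 2 loci, within Mir129-2 (chr2:94241419-94241439, minus strand) and within Mir129-1 (chr6:29022624-29022644, plus strand). The 3p strand has 22 bases and is annotated in Mir129-2 (chr2:94241376-94241397, minus strand). Among the 1679 mature mouse miRNA names in the RefSeq table, each of these seeds was held by 1 name.

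The hairpins are shown because they place both arms on their precursors, with the annotated mature strands in capitals.
Mir129-2: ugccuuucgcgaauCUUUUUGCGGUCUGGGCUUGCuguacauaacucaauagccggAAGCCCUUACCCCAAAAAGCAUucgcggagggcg
Mir129-1: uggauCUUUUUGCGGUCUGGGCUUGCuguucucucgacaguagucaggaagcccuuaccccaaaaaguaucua
Mir129-2 (chr2:94241364-94241453, minus strand) spans 90 bases and Mir129-1 (chr6:29022619-29022691, plus strand) spans 73 bases. In the Mir129-1 hairpin the stretch from base 49 matches the annotated 3p strand at 21 of 22 bases. Counted from the 5′ end of the 3p strand, with the Mir129-2 base first, the change is C20U, shown here in capitals.
Mir129-1 stretch: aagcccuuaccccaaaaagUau
The Ct values therefore cannot be divided between the 2 loci for the 5p strand, and the assay names do not say whether a 3p strand from Mir129-1 would be read. Mir129b is annotated at chr2:94241378-94241442, on the opposite strand of Mir129-2, and no assay was named for it.

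wt control replicate 1 stood apart from the other samples before any comparison. Of the 335 miRNAs, 72 (21.5%) in wt control replicate 1 and 28 (8.36%) in P2rx7-/- control replicate 1 differed by more than 2 cycles from the median over the remaining samples, against 3 to 24 in the other 10 samples, where 24 belonged to wt post-SE replicate 1. The 2 control samples with the most such miRNAs are left out together in what follows and are called the deviating control samples, although the second of them was close to wt post-SE replicate 1 by this count. The Spearman correlation of wt control replicate 1 with the other samples, across these miRNAs, was 0.660 to 0.737. The number of miRNA assays with a Ct was 470 in wt control replicate 1, 488 in P2rx7-/- control replicate 1 and 476 to 538 elsewhere. Each miRNA was read in 1 well per sample, and the 187 wells of the small nucleolar RNA snoRNA135, read repeatedly, had a median SD within a sample of 0.281 cycles, with 14 wells (7.49%) more than 1 cycle from their median. RNA integrity was not assessed here.

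Both arms were readily detected in all 4 groups. One cycle is about a factor of 2, and a lower Ct means more miRNA. The Ct of miR-129-5p was 23.5, 19.8 and 19.8 in wt control, 18.4, 20.2 and 20.2 in P2rx7-/- control, 19.4, 20.3 and 19.8 in wt post-SE and 19.7, 19.8 and 20.6 in P2rx7-/- post-SE samples, in the order of the replicate numbers. The Ct of miR-129-3p was 17.8, 15.0 and 14.8 in wt control, 10.5, 15.4 and 14.6 in P2rx7-/- control, 13.0, 14.8 and 14.8 in wt post-SE and 12.4, 14.9 and 15.8 in P2rx7-/- post-SE samples. The first wt control sample had the highest Ct and the first P2rx7-/- control sample the lowest Ct of the 12 for either arm. In that P2rx7-/- control sample miR-129-3p had the lowest Ct of all 335 miRNAs, close to the lowest Ct listed in the table (10.004), whereas its rank from the lowest Ct was 13 to 66 in 10 other samples and farther from the lowest Ct in the first wt control sample. The rank of miR-129-5p was 288 in the first wt control sample and nearer the lowest Ct in all other samples. Ct values of the 5p and 3p assays are not on a common scale, since assays differ in efficiency, so the lower Ct of the 3p assay does not say that this strand was more abundant.

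Levels are given as minus ΔCt, a log2 scale on which 0 is the mean of the 335 miRNAs in a sample and 1 unit is a factor of 2. The level of miR-129-5p was -4.46, -1.27 and -1.53 in wt control, 0.77, -1.24 and -1.10 in P2rx7-/- control, -0.15, -1.36 and -1.19 in wt post-SE and -1.24, -0.73 and -1.54 in P2rx7-/- post-SE samples. The level of miR-129-3p was 1.27, 3.57 and 3.42 in wt control, 8.66, 3.55 and 4.55 in P2rx7-/- control, 6.29, 4.15 and 3.81 in wt post-SE and 6.05, 4.21 and 3.29 in P2rx7-/- post-SE samples. Apart from the replicate 1 samples, the 5p level kept between -1.54 and -0.73 and the 3p level between 3.29 and 4.55 in every group. For the 5p arm, wt control replicate 1 was 3.22 below and P2rx7-/- control replicate 1 was 2.01 above the median of the other 11 samples. For the 3p arm, these samples were 2.87 below and 4.85 above it, and replicate 1 of the wt post-SE and P2rx7-/- post-SE groups was 2.48 and 2.24 above it.

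**Figure D1:**
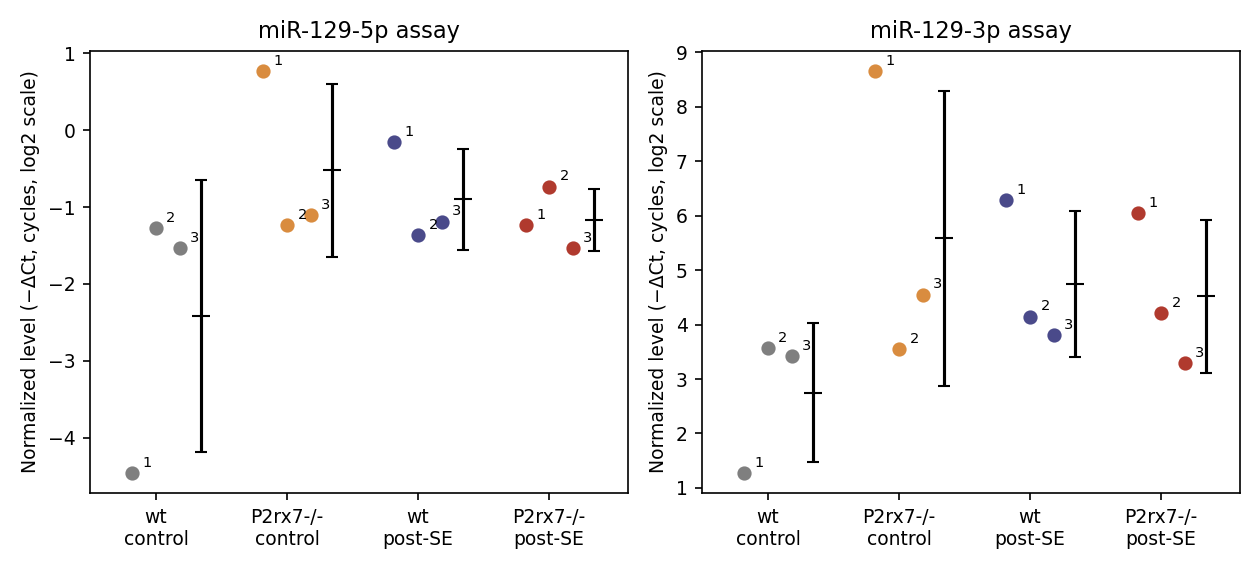
Level of miR-129-5p and miR-129-3p (minus ΔCt, log2) in each of the 12 samples by group. Points carry the replicate number, and the black bar is the group mean ± SD (n = 3). The 5p point of wt control replicate 1 (-4.46) and the 3p point of P2rx7-/- control replicate 1 (8.66) lie farthest from the rest.

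The order of the group means was the same for both arms. For miR-129-5p it ran from wt control (-2.42 ± 1.77, SD, n = 3) through P2rx7-/- post-SE (-1.17 ± 0.405) and wt post-SE (-0.90 ± 0.655) to P2rx7-/- control (-0.52 ± 1.12). For miR-129-3p it ran from wt control (2.75 ± 1.28) through P2rx7-/- post-SE (4.52 ± 1.41) and wt post-SE (4.75 ± 1.34) to P2rx7-/- control (5.59 ± 2.71). Neighbours in these orders lay closer together than the larger of their SDs, except wt control and P2rx7-/- post-SE samples for the 3p arm. In bulk hippocampus, fewer cells that hold miR-129 and less miR-129 per cell cannot be told apart.

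The spread between samples of a group was wide for both arms and, for the 3p arm, remained so without the deviating control samples. The pooled SD of the level within groups was 1.12 for miR-129-5p and 1.79 for miR-129-3p, against a median of 0.636 over the 335 miRNAs, of which 78 and 39 had a larger SD. Without wt control replicate 1 and P2rx7-/- control replicate 1 it was 0.453 for the 5p arm, below the median of 0.525, with 208 miRNAs larger. For the 3p arm it was still 1.16, with 39 miRNAs larger.

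The comparison of the genotypes without seizures used the thresholds of the study, 1.5 for up-regulated and 0.6 for down-regulated. They were applied here to the arithmetic mean of the 3 FCs of a group, each relative to the average ΔCt of the reference group, a form the methods do not spell out. Both arms were above 1.5 in P2rx7-/- control against wt control samples. The 3 FCs of miR-129-5p were 9.15, 2.27 and 2.49, with an average of 4.64 ± 3.91 (SD, n = 3). Those of miR-129-3p were 60.02, 1.74 and 3.47, with an average of 21.7 ± 33.2. One P2rx7-/- sample thus carried most of each average, and it was the same sample for both arms. The wt control samples themselves had FCs of 0.243, 2.22 and 1.85 for the 5p arm and 0.359, 1.76 and 1.59 for the 3p arm, so in either arm 2 of the 3 reference samples lay above 1.5. The P2rx7-/- control samples were all above the wt control samples for the 5p arm, with -1.24 and -1.27 as the nearest levels, and overlapped with them for the 3p arm.

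Read against all 335 miRNAs, being above 1.5 was common in this comparison. The rule called 71 miRNAs (21.2%) up-regulated and 52 (15.5%) down-regulated, and the median average FC was 1.03. Groups in which every P2rx7-/- control sample was higher occurred for 12 miRNAs (3.58%), and groups in which every one was lower for 35 (10.4%). As this is the contrast for which miR-129 was picked, its rank by average FC (23 for the 5p arm and 9 for the 3p arm) supports nothing further. In a limma fit of all 4 groups the difference of mean levels was 1.90 ± 0.84 (standard error) for the 5p arm and 2.83 ± 1.31 for the 3p arm. In that fit no miRNA of the 335 had a Benjamini-Hochberg adjusted p below 0.05 in this comparison, and 20 had an unadjusted p below 0.05. These counts describe the whole panel and are no test of miR-129, which was picked on this contrast.

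Leaving out 1 of the 2 deviating control samples kept both averages above 1.5, and leaving out both did not for the 5p arm. wt control replicate 1 was the lowest and P2rx7-/- control replicate 1 the highest of the 12 samples for either arm. Leaving them out was therefore bound to lower these averages. The average FC of miR-129-5p was 2.30 without wt control replicate 1, 2.39 without P2rx7-/- control replicate 1 and 1.19 ± 0.0786 (n = 2 against 2) without either. That of miR-129-3p was 13.1, 2.61 and 1.58 ± 0.742, in the same order. In the set without both samples, which had 401 miRNAs with a Ct throughout and of which 74 (18.5%) were called up-regulated and 34 (8.48%) down-regulated, the 3p arm ranked 61 and the 5p arm was not among those called. The FCs of the remaining P2rx7-/- control samples were 1.13 and 1.24 for the 5p arm and 1.05 and 2.10 for the 3p arm. The limma difference was 0.25 ± 0.47 (standard error) for the 5p arm and 0.57 ± 0.99 for the 3p arm, again as a description only.

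**Figure D2:**
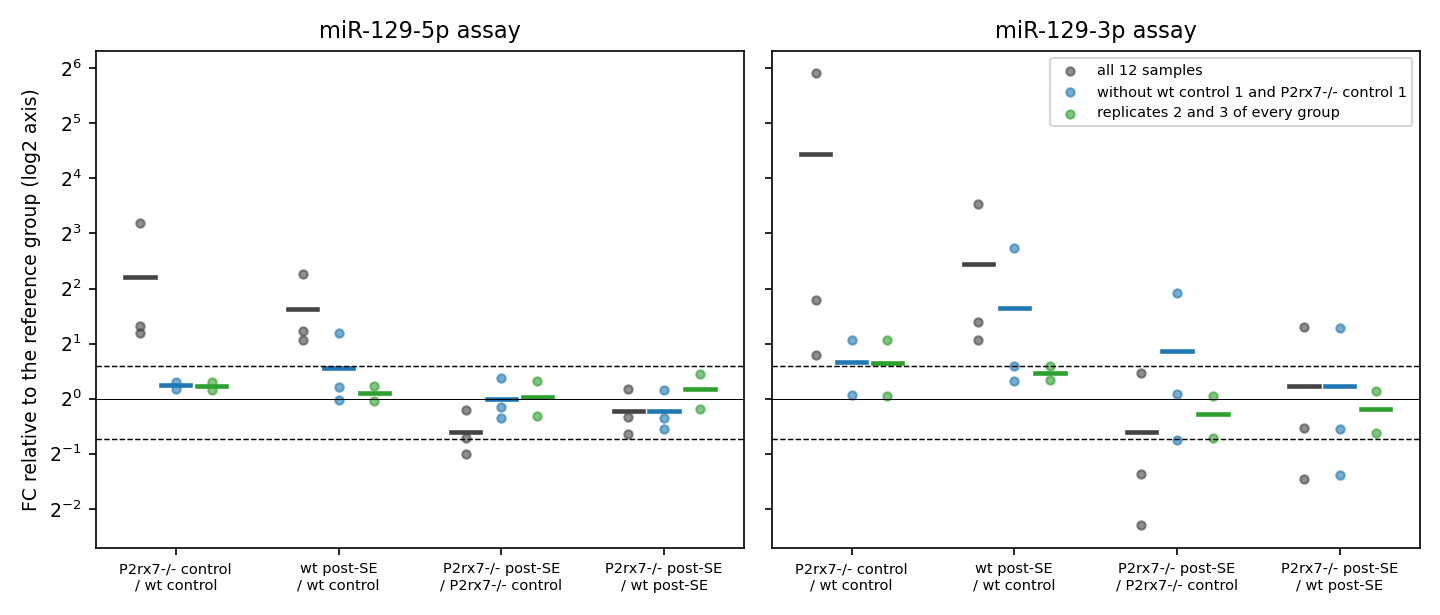
Average FC of both miR-129 arms (log axis) in the 4 comparisons, with all 12 samples, without wt control replicate 1 and P2rx7-/- control replicate 1, and with replicates 2 and 3 only. Small points are the FCs of single samples and dashed lines mark 1.5 and 0.6. In P2rx7-/- control against wt control the 5p average moved from 4.64 to 1.19 and the 3p average from 21.7 to 1.58 once both samples were left out.

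The response to SE in wt mice was compared against the same wt control samples, so it shares wt control replicate 1 with the comparison above. Both arms were above 1.5 in wt post-SE samples. The FCs of miR-129-5p were 4.82, 2.08 and 2.35 (average 3.08 ± 1.51) and those of miR-129-3p were 11.6, 2.63 and 2.08 (average 5.44 ± 5.35). The wt post-SE samples all lay above the wt control samples for the 3p arm and overlapped with them for the 5p arm. In this comparison 78 of the 335 miRNAs (23.3%) were called up-regulated, the median average FC was 0.993, and 42 (12.5%) were called down-regulated. All post-SE samples were higher for 20 miRNAs (5.97%) and lower for 17 (5.07%).

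The 5p response rested on 1 reference sample. Without wt control replicate 1 the average FC of miR-129-5p was 1.48, and without both deviating control samples it was 1.47 ± 0.705 with single FCs from 0.978 to 2.28, below the threshold of 1.5 in either case. That of miR-129-3p was 3.15 and 3.14 ± 3.06, with single FCs from 1.25 to 6.66 in the second set, where 69 of 401 miRNAs (17.2%) were called up-regulated and 23 (5.74%) down-regulated. The highest FC belonged to wt post-SE replicate 1. With replicates 2 and 3 of every group only, a set chosen after the values were seen, the averages were 1.08 ± 0.139 and 1.38 ± 0.163 (n = 2 against 2). The limma difference was 1.52 ± 0.84 for the 5p arm and 2.00 ± 1.31 for the 3p arm with all samples, and 0.46 ± 0.43 and 1.21 ± 0.90 without both deviating control samples.

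After SE in P2rx7-/- mice neither arm passed a threshold against P2rx7-/- control samples. The FCs of miR-129-5p were 0.608, 0.863 and 0.496 (average 0.656 ± 0.188) and those of miR-129-3p were 1.38, 0.385 and 0.203 (average 0.657 ± 0.634). The groups overlapped for both arms, although the highest sample of the reference group was P2rx7-/- control replicate 1 in either case. Among the 335 miRNAs, 60 (17.9%) were called up-regulated and 24 (7.16%) down-regulated, and both arms passed neither threshold, at rank 303 (5p) and 302 (3p) from the highest average FC. All P2rx7-/- post-SE samples were higher than P2rx7-/- control samples for 13 miRNAs (3.88%) and lower for 9 (2.69%). Without both deviating control samples the averages were 0.991 ± 0.263 for the 5p arm and 1.82 ± 1.72 for the 3p arm, the latter above 1.5 together with 82 of 401 miRNAs (20.4%; 27 or 6.73% were below 0.6) and with single FCs from 0.597 to 3.79. The limma difference was -0.65 ± 0.84 and -1.07 ± 1.31 with all samples and -0.04 ± 0.43 and 0.42 ± 0.90 without the 2 samples, so the 3p difference turned its sign. It was -0.34 ± 0.46 with replicates 2 and 3 of every group only, with an average FC of 0.820.

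**Figure D3:**
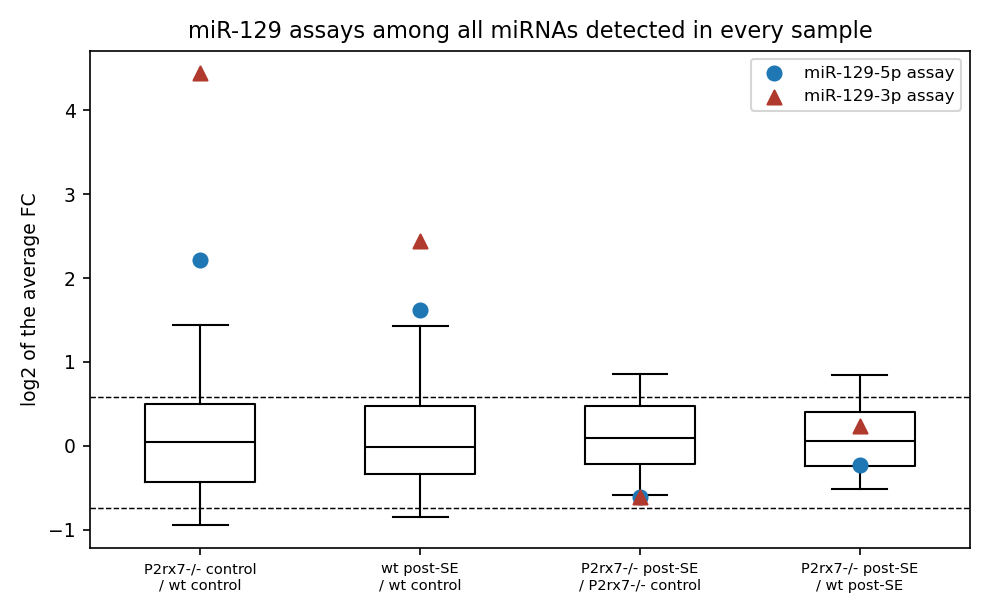
Average FC (log axis) of the miR-129 arms beside the distribution over all 335 miRNAs in each comparison. Boxes span the quartiles, whiskers the 10th to 90th percentile, and dashed lines mark 1.5 and 0.6. The arms lie in the upper tail in both comparisons against wt control (4.64 and 21.7, then 3.08 and 5.44), near the end of the lower whisker for P2rx7-/- post-SE against P2rx7-/- control (0.656 and 0.657), and inside the whiskers against wt post-SE.

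P2rx7-/- post-SE against wt post-SE is the comparison in which neither group is a control, and here neither arm passed a threshold. The FCs of miR-129-5p were 0.791, 1.12 and 0.644 (average 0.853 ± 0.245) and those of miR-129-3p were 2.47, 0.688 and 0.363 (average 1.17 ± 1.13). The groups overlapped for both arms. Of the 335 miRNAs, 57 (17%) were called up-regulated and 15 (4.48%) down-regulated, and neither arm was among them. All P2rx7-/- post-SE samples were higher for 7 miRNAs (2.09%) and lower for 12 (3.58%). The limma difference was -0.27 ± 0.84 for the 5p arm (95% interval -2.13 to 1.59, Benjamini-Hochberg adjusted p = 0.999) and -0.23 ± 1.31 for the 3p arm (-3.14 to 2.68, adjusted p = 0.999). limma called 0 of the 335 miRNAs (0%) at an adjusted p below 0.05 in this comparison, and 4 had an unadjusted p below 0.05. The exact two-sided permutation test of 3 samples against 3, which cannot give a p below 0.1, gave p = 0.6 for the 5p arm and p = 0.8 for the 3p arm. In the limma fit the control samples share in the estimate of the spread. Without the deviating control samples the difference was -0.25 ± 0.39 for the 5p arm (95% interval -1.13 to 0.63, adjusted p = 0.974) and -0.22 ± 0.81 for the 3p arm (-2.04 to 1.61, adjusted p = 0.974). In a limma fit of the 6 post-SE samples alone the standard error was 0.44 for the 5p arm and 0.89 for the 3p arm, and both adjusted p-values were 0.979.

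The difference between the arms was examined next, since Ct of the 5p assay minus Ct of the 3p assay in the same sample needs no normalization. A higher value means more 3p relative to 5p, and only differences between samples can be read. It was 5.73, 4.84 and 4.95 in wt control, 7.89, 4.79 and 5.65 in P2rx7-/- control, 6.44, 5.51 and 5.003 in wt post-SE and 7.29, 4.94 and 4.82 in P2rx7-/- post-SE samples. Replicate 1 had the highest value in each of the 4 groups, and the 4 replicate 1 samples (5.73 and above) all lay above the other 8 samples (5.65 and below). The groups overlapped in every comparison.

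The change of the arm difference between groups was within its standard error in every comparison with all 12 samples, though not in every smaller set. It was 0.936 ± 0.966 (standard error) cycles for P2rx7-/- control against wt control and 0.328 ± 0.435 without both deviating control samples. It was 0.478 ± 0.507 for wt post-SE against wt control (0.758 ± 0.425 without both) and -0.422 ± 1.22 for P2rx7-/- post-SE against P2rx7-/- control (0.467 ± 0.911 without both). Between the post-SE groups it was 0.0364 ± 0.907, with p = 1 in the exact two-sided permutation test. Without both samples the change exceeded its standard error in wt post-SE against wt control. With replicates 2 and 3 only, a set chosen after the values were seen, it was 0.363 ± 0.259 in that comparison. In the same set it was -0.336 ± 0.435 for P2rx7-/- post-SE against P2rx7-/- control and -0.371 ± 0.260 between the post-SE groups (n = 2 against 2).

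**Figure D4:**
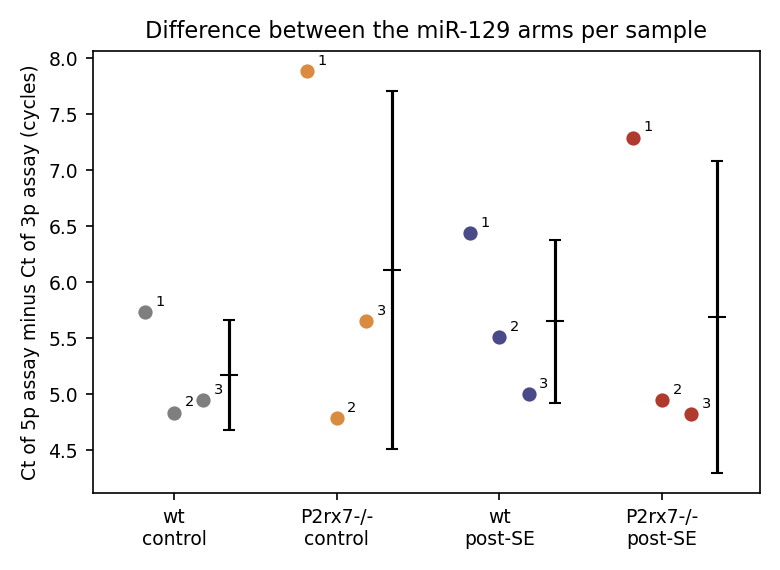
Ct of miR-129-5p minus Ct of miR-129-3p (cycles) in each of the 12 samples by group. Points carry the replicate number, and the black bar is the group mean ± SD (n = 3). Replicate 1 is the highest point of every group, from 5.73 in wt control to 7.89 in P2rx7-/- control.

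For comparison, the same difference was computed for the other 68 pairs of assays for 2 strands of one miRNA number that were detected in all samples. The pooled SD of the arm difference within groups was 1.15 cycles for miR-129, and 29 of the other pairs had a larger one (median of the others 0.941). The narrowest spread was that of miR-337 (0.190), miR-34b (0.280) and miR-27b (0.366), and the widest that of miR-99a (3.84), miR-376a (2.97) and miR-770 (2.93). The spread of the miR-129 pair was thus ordinary among these pairs. In 4 other pairs (miR-16, miR-20a, miR-345 and let-7a) replicate 1 was at the same extreme in all 4 groups, and in 0 of the 68 did the 4 replicate 1 samples lie wholly outside the other 8, as they did for miR-129. That property was noticed in these values and then counted, and nothing in the labels says what a replicate number stands for. Of the 335 single assays, 1 had replicate 1 highest in all 4 groups and 5 had it lowest, and neither miR-129 assay was among them.

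The levels of the 2 arms followed each other across samples. Pearson's r was 0.857 over 12 samples and 0.689 over the 10 samples without the 2 deviating control samples, against a median of 0.0937 and 0.0414 over the other 68 pairs, of which 3 and 4 had an r at least as high. All levels of a sample share 1 RNA pool and 1 normalizer, and the r over 12 samples rests in part on the 2 samples at the extremes of both arms.

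**Figure D5:**
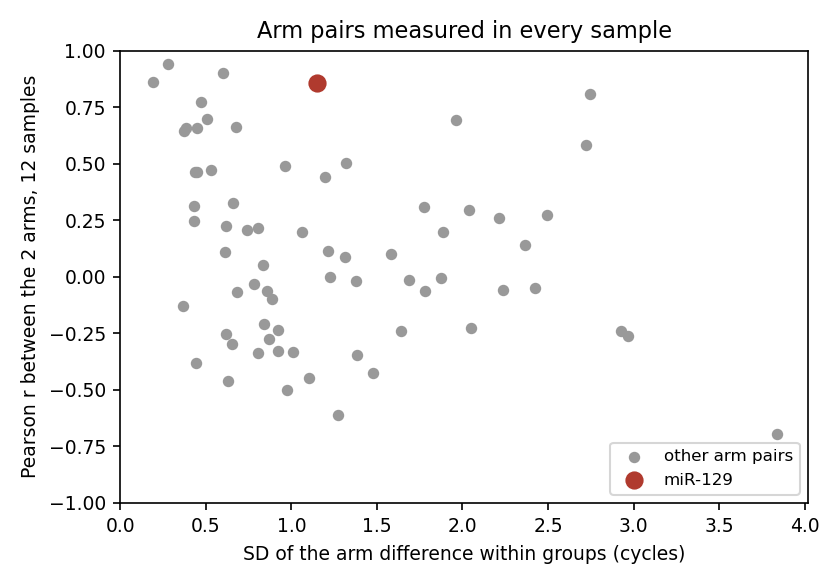
Pearson's r between the levels of the 2 strands (12 samples) against the pooled within-group SD of their Ct difference (cycles) for 69 strand pairs, with miR-129 marked. miR-129 lies at an r of 0.857 and an SD of 1.15, among the highest r values and in the middle of the SDs.

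The miRNAs whose levels were most like those of the arms changed with the sample set. For miR-129-5p over 12 samples they were miR-185 (r = 0.930), miR-34a (0.888) and miR-376a (0.874), with the 3p arm in place 4. Over 10 samples the r of the first 3 was 0.603, -0.270 and -0.0388, and the most alike were miR-2138 (0.914), miR-300 (0.884) and miR-213 (0.882), with the 3p arm in place 14. For miR-129-3p over 12 samples they were miR-15b (0.914), miR-129-5p (0.857) and miR-671-3p (0.834). Over 10 samples they were miR-142-3p (0.935), miR-150 (0.880) and miR-145 (0.876), with the 5p arm in place 13. miR-142-3p and miR-150 are known from blood and immune cells and miR-145 from smooth muscle of vessel walls. These r values of the 3p arm rest in part on replicate 1 of both post-SE groups. The 3p level was 6.29 (wt) and 6.05 (P2rx7-/-) there, against 3.29 to 4.55 in the rest of the 10 samples.

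Among other miRNAs known from neurons, 1 of 6 was above 1.5 in each comparison, not more than the share over all miRNAs. Of the 12 assays of the neuron-enriched list (miR-9, miR-124, miR-128, miR-137, miR-138, miR-153 and miR-218 with their passenger strands), 6 were detected in all samples. In P2rx7-/- control against wt control 1 of these 6 was above 1.5 and 1 below 0.6, beside 21.2% and 15.5% of all miRNAs, with a median average FC of 1.12 beside 1.03. The member above 1.5 was miR-137, a regulator of neuronal maturation, at 1.94 ± 0.703, and it was at 1.07 without both deviating control samples. The one below 0.6 was miR-218-2#, a passenger strand, at 0.594 ± 0.459. In wt post-SE against wt control 1 was above 1.5 and 0 below 0.6, beside 23.3% and 12.5% of all miRNAs (median 1.05 beside 0.993). That was miR-137 again, at 3.02 ± 1.91, and at 1.37, below the threshold, without both samples. In P2rx7-/- post-SE samples 1 member was above 1.5 and 0 below 0.6 against P2rx7-/- control, beside 17.9% and 7.16% (median 1.22 beside 1.07), namely miR-218-2# at 3.48 ± 2.02. The same counts were found against wt post-SE, beside 17% and 4.48% (median 1.29 beside 1.04), where the member was miR-218-1# at 1.52 ± 0.631.

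miRNAs known to respond to neuronal activity or seizures included several above 1.5 after SE, and some of these calls were lost without the deviating control samples. Of 14 assays 11 were detected in all samples. Against wt control, 6 were above 1.5 and 0 below 0.6 in wt post-SE samples, beside 23.3% and 12.5% of all miRNAs (median 1.64 beside 0.993). Without both deviating control samples it was 4 and 0, beside 17.2% and 5.74% (median 1.29). miR-21#, the passenger strand of the injury-responsive miR-21, kept its average (5.28 ± 0.857 with all samples, 5.19 without both), whereas miR-27a went from 9.14 ± 1.39 to 1.13. Against wt control in P2rx7-/- control samples 4 were above and 1, miR-21 (0.513 ± 0.199), was below, beside 21.2% and 15.5% of all miRNAs (median 1.11 beside 1.03), and 3 and 0 without both, beside 18.5% and 8.48%. The highest of these were miR-155, an inflammatory miRNA of myeloid cells, at 13.3 ± 21.5, and miR-34a, which is induced by p53, at 11.7 ± 8.71. Without both, miR-34a was at 1.27 and miR-155 at 21.5 (n = 2 against 2). With all samples the SD of miR-155 was larger than its average, so its values differed widely between the P2rx7-/- control samples. By individual qPCR the study found no change of miR-155 in control conditions and reported it raised in P2rx7-/- mice after SE. In P2rx7-/- post-SE samples 5 were above against P2rx7-/- control, beside 17.9% of all miRNAs (median 1.35 beside 1.07), and 3 without both deviating control samples, beside 20.4%, where miR-155 went from 1.62 to 0.671. Against wt post-SE samples 3 were above, beside 17% (median 1.02 beside 1.04), and none of the detected members was below 0.6 in any of these comparisons of P2rx7-/- post-SE samples. miR-155 had the highest average of the list against wt post-SE, 2.91 ± 2.67.

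The sample with the lowest miR-129 was at an extreme for some marker lists and within the range of the other samples for the rest. The summed level (log2) of the 3 of 8 neuron marker assays detected in all samples was 4.62 in wt control replicate 1 and 5.36 to 6.32 in the others. Its 1 of 6 vessel wall assays detected throughout, miR-145, was at 1.94 there and at 4.58 to 7.94 in the others. The 2 of 3 blood assays summed to 4.62 there, the highest of all samples, and to 2.12 to 4.15 in the others. Its oligodendrocyte sum (3.20) and its microglia and myeloid sum (5.06) lay within the range of the others (1.86 to 4.28 and 4.77 to 6.71). The neuron markers did not go together. In wt post-SE against wt control, leaving out both deviating control samples moved the average FC of miR-137 from 3.02 to 1.37. That of miR-128a moved from 1.04 to 0.932 and that of the passenger strand miR-138# from 0.901 to 0.959. A sum over assays also weighs those with the lowest Ct most, although assays differ in efficiency. P2rx7-/- control replicate 1 lay within the range of the other samples for the 3 of 8 neuron, 4 of 6 oligodendrocyte, 4 of 6 microglia and myeloid, 1 of 6 vessel wall and 2 of 3 blood assays. Its neuron sum of 5.36 was the lowest but for wt control replicate 1, and its miR-129 level was the highest of all samples for both arms. By group, the neuron sum was 4.62 to 5.67 in wt control, 5.36 to 5.84 in P2rx7-/- control, 5.40 to 6.23 in wt post-SE and 5.47 to 6.32 in P2rx7-/- post-SE samples. The oligodendrocyte sum was 2.67 to 3.20, 1.86 to 2.55, 2.28 to 3.05 and 2.25 to 4.28 in the same order. The microglia and myeloid sum was 5.06 to 6.71, 5.50 to 6.48, 4.77 to 5.69 and 5.29 to 6.69. The level of miR-145 was 1.94 to 5.13, 4.79 to 5.49, 4.89 to 7.94 and 4.73 to 5.97, and the blood sum was 2.41 to 4.62, 2.72 to 4.15, 2.12 to 2.36 and 2.39 to 3.23. Of the defining neuronal miRNAs, miR-124a had a Ct in 11 samples and miR-9 in 4, and every marker assay had a Ct in at least 1 sample. Listed Ct ran from 10.004 to 27.9986, and a missing Ct does not tell whether a miRNA was scarce. The part of these marker levels in the miR-129 values was not tested.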

How the data were processed

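The authors extracted hippocampal RNA and read it on TaqMan OpenArray plates after preamplification. The table of Ct values deposited by the authors holds 653 assay lines and is not normalized, with listed Ct from 10.004 to 27.9986. The unit is the cycle, and the software of the Ct calls is not given in the sources used here. A second table deposited by the authors holds a ratio (FC) per sample relative to 1 wt control sample and was not used. Blank lines and a line of sample means (2 in all) were left out, and 0 columns were unassigned. For each sample the mean Ct of the 335 miRNAs with a Ct below 28 in all 12 samples was subtracted. For FCs and limma fits with replicates omitted, the mean was over the miRNAs with such a Ct in all samples kept. These were 401 without both deviating control samples and 436 with replicates 2 and 3 only. SDs within groups and r values over 10 samples kept the levels based on 335. FCs were 2 to the power of minus ΔΔCt, averaged arithmetically here, and called above 1.5 and below 0.6 without a false discovery rate, thresholds the methods state. R 4.3.3 with limma 3.58.1 was fitted to minus ΔCt with 1 coefficient for each of the 4 groups. Adjustment by Benjamini-Hochberg was over the miRNAs of the fit, 335 with all samples. The rest was done with scipy 1.17.1, pandas 2.3.3, matplotlib 3.10.9 and numpy 2.4.6 under Python 3.11.15. The limma code was run on simulated data with SDs capped below that of miR-129-3p, so the run does not cover this spread. The labels give no more than that the samples are separate, and the methods that each is a pool of 2 hippocampi, so p-values measure the spread between pools. The named miRNAs were the miR-129 assays, the 3 most alike by Pearson correlation, the extremes of 2 lists, and the widest and narrowest strand pairs. Members and lists were chosen with earlier results of these data known. Alternatives were other normalizers, a Ct limit of 26, geometric means, omitted samples and a replicate block.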

Additional observations from a re-analysis of the deposited data

Results flagged for a closer look

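For miR-129-5p the samples moved in opposite directions after SE in the 2 genotypes when all 12 samples were used: all 3 wt post-SE samples lay above the wt control mean and all 3 P2rx7-/- post-SE samples lay below the P2rx7-/- control mean. The log2 change after SE in P2rx7-/- minus that in wt samples was -2.17 ± 1.18 (standard error, limma). The difference was not tested, since miR-129 was picked from the control samples that enter it. Without wt control replicate 1 and P2rx7-/- control replicate 1 it was -0.50 ± 0.61, and the samples of either genotype no longer lay on 1 side, with FCs of 0.978 to 2.28 in wt and 0.786 to 1.29 in P2rx7-/- post-SE samples. Groups of 3 are too small for the check on single outlying samples.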

How the results depend on the processing

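Leaving out both wt control replicate 1 and P2rx7-/- control replicate 1 gave an average FC of 1.19 for miR-129-5p in P2rx7-/- against wt control, 1.47 in wt post-SE against wt control, and 1.82 for miR-129-3p in P2rx7-/- post-SE against P2rx7-/- control. With replicates 2 and 3 only, an alternative chosen after seeing the data, these were 1.18, 1.08 and 0.820, and miR-129-3p in wt post-SE was 1.38. Leaving out 1 sample at a time, the 5p average was 2.30 to 6.91 in P2rx7-/- control, 1.48 (without wt control replicate 1) to 4.59 in wt post-SE, 0.512 to 1.02 in P2rx7-/- post-SE against P2rx7-/- control and 0.727 to 1.08 against wt post-SE. It fell below 0.6 against P2rx7-/- control without P2rx7-/- control replicate 2 (0.512) or 3 (0.539) or P2rx7-/- post-SE replicate 2 (0.555). The 3p average was 2.61 to 31.7, 2.36 to 7.21, 0.295 to 1.89 and 0.523 to 1.96 in the same order. It was 1.89 without P2rx7-/- control replicate 1 and 0.295, 0.324 and 0.460 without P2rx7-/- post-SE replicate 1 and P2rx7-/- control replicates 2 and 3. Against wt post-SE it was 0.523 without P2rx7-/- post-SE replicate 1, 1.59 without its replicate 3 and 1.96 without wt post-SE replicate 1. For miR-129-3p in P2rx7-/- post-SE, snoRNA135 as normalizer gave 0.595 and geometric means 0.477 against P2rx7-/- control, and snoRNA202 gave 1.54 against wt post-SE. The limma difference between the post-SE groups turned to 0.029 (5p) and 0.065 (3p) with snoRNA135 and to 0.13 (5p) with replicates 2 and 3 only, and ran from -0.49 to 0.080 (5p) and -1.004 to 0.51 (3p) without 1 sample. In the comparison of the post-SE groups no setting gave a miRNA with an adjusted p below 0.05. Without P2rx7-/- control replicate 2, limma called 1 miRNA in each of the comparisons of post-SE with control samples of the same genotype. The causes were not tested. Same-numbered samples of different groups deviated together in some pairs only (r from -0.227 to 0.277 over 18 pairs, 4 above 0.1, with 6 of 12 samples correlating best with their own number), so the numbers were not taken to pair the samples. With the replicate number as a block in the limma fit the post-SE differences were -0.27 ± 0.93 (standard error) for 5p and -0.23 ± 1.21 for 3p, both with an adjusted p of 0.999. Single wells and 3 pools per group limit the precision.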
